A study of Mus musculus with 3 samples.

Results

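TRAV14 T cell receptor (TCR) α chains whose complementarity-determining region 3 (CDR3) carries a residue other than serine at position 4 were examined, with positions counted from 1 at the cysteine that opens the CDR3. They were taken from cells with exactly 1 productive α chain, a V gene named TRAV14 and any other residue than serine at that position. Of 6982 cells with exactly 1 productive α chain, 6824 used TRAV14, and 2298 of these chains lacked the serine while 4526 carried it. These 2298 chains held 1311 different CDR3 amino acid sequences, of 3093 among all TRAV14 chains.

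Thymocytes of 8 female mice, 7 to 12 weeks old, were pooled, so no cell can be traced to an animal. All mice were labelled C56Bl/6- with TCliβ, a fixed TCRβ chain, TCRα+/- and Foxp3-GFP, and all cells were sorted as Vα2+, so the β chain and the Vα2 gate are common to every group. The 6 populations, each with its own hashtag, were CD4+CD8+ double-positive cells (DP, from unenriched thymocytes) and 5 from thymus depleted of CD8+ cells. The latter were CD4+ cells without CD25, Foxp3 and CD73 (CD4 SP), regulatory T cell progenitors that were CD25+ (CD25+ TRP) or Foxp3lo (Foxp3lo TRP), and regulatory T cells without CD73 (CD73- Treg) or with it (CD73+ Treg). Each population was sorted once, so nothing could be tested between them. Shares are given with exact Clopper-Pearson 95% intervals in brackets, which hold counting error alone and treat cells of a clone as if they were independent.

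The α chain gene is assembled in DP thymocytes by joining a V to a J segment, after nucleases trim both ends and terminal transferase can add bases that neither segment encodes. CDR3α spans this joint and lies over the peptide held by the MHC molecule, so the residues at the V end are the first that trimming can replace. TRAV14 is the mouse gene family whose product is Vα2, and its copies lie in 3 blocks of the α locus, named TRAV14, TRAV14D and TRAV14N.

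The sequences below show where the serine is encoded and how it was lost in the most frequent chains. In the GRCm38 build, all 9 annotated TRAV14 genes, of which 8 were called, end in the same 13 bases from the CDR3 cysteine on (GENCODE M21). The codon of position 4 is in capitals here and in the chains that follow. The J segments TRAJ23, TRAJ13 and TRAJ30 are given up to the end of the CDR3, with no capitals. Each chain is the most frequent nucleotide sequence of a frequent CDR3, named here by its J segment and the residue at position 4, and the last is the most frequent chain with serine.
TRAV14 end: tgtgcagcaAGTg
TRAJ23: tgaattataaccaggggaagcttatcttt
TRAJ13: caaattctgggacttaccagaggttt
TRAJ30: tgacacaaatgcttacaaagtcatcttt
TRAJ23-Arg: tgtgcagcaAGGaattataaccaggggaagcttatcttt
TRAJ13-Asn: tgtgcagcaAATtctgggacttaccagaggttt
TRAJ22-Arg: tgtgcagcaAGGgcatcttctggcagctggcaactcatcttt
TRAJ23-Asn: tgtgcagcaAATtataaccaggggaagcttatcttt
TRAJ13-Arg: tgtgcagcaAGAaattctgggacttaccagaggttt
TRAJ30-Arg: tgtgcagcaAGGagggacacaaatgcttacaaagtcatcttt
TRAJ7-Asp: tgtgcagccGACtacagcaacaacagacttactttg
TRAJ30-Gly: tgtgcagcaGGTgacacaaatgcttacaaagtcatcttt
TRAJ13-Ser: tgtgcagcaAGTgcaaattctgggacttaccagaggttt

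TRAJ23-Arg (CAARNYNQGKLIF) can be read as 11 bases of TRAV14 followed by 28 bases of TRAJ23, with 0 bases between them. The asparagine codon of TRAJ13-Asn (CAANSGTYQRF) can be read as 10 bases of TRAV14 and 23 of TRAJ13 with 0 added, or as lying wholly in TRAJ13, whose 26 bases all match the end of this CDR3. In TRAJ30-Arg, 11 bases of TRAV14 and 27 of TRAJ30 were separated by 4 bases that match neither. TRAJ13-Ser kept all 13 V bases and all 26 bases of TRAJ13.

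Chains without serine made up 33.7% of TRAV14 chains over all cells (32.6 to 34.8). The share was lowest in CD4 SP, at 27.6% (510 of 1845 chains, 25.6 to 29.7), and highest in CD73- Treg, at 43.4% (95 of 219, 36.7 to 50.2). DP stood at 37.5% (434 of 1156, 34.7 to 40.4) and CD73+ Treg at 40.1% (417 of 1040, 37.1 to 43.2). Of the progenitors, CD25+ TRP stood at 31.3% (553 of 1767, 29.1 to 33.5) and Foxp3lo TRP at 36.3% (289 of 797, 32.9 to 39.7). CD4 SP lay apart from every population other than CD25+ TRP, and CD25+ TRP lay apart from DP and both Treg populations.

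Counting each different CDR3 once brought the populations closer together. CD4 SP then stood at 35.6% (32.5 to 38.8), CD25+ TRP at 38.9% (35.8 to 42.0) and DP at 38.98% (35.9 to 42.1). Foxp3lo TRP followed at 40.8% (36.5 to 45.2), CD73+ Treg at 43.8% (39.9 to 47.8) and CD73- Treg at 44.5% (37.2 to 52.0). The intervals of CD4 SP and CD73+ Treg alone remained apart. CD4 SP stayed the lowest and CD73- Treg the highest value under all 8 other ways of counting. Median UMIs of the α contig were 14 (DP) to 22 (CD25+ TRP) and differed by at most 1 UMI between chains without and with serine of the same population.

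**Figure D1:**
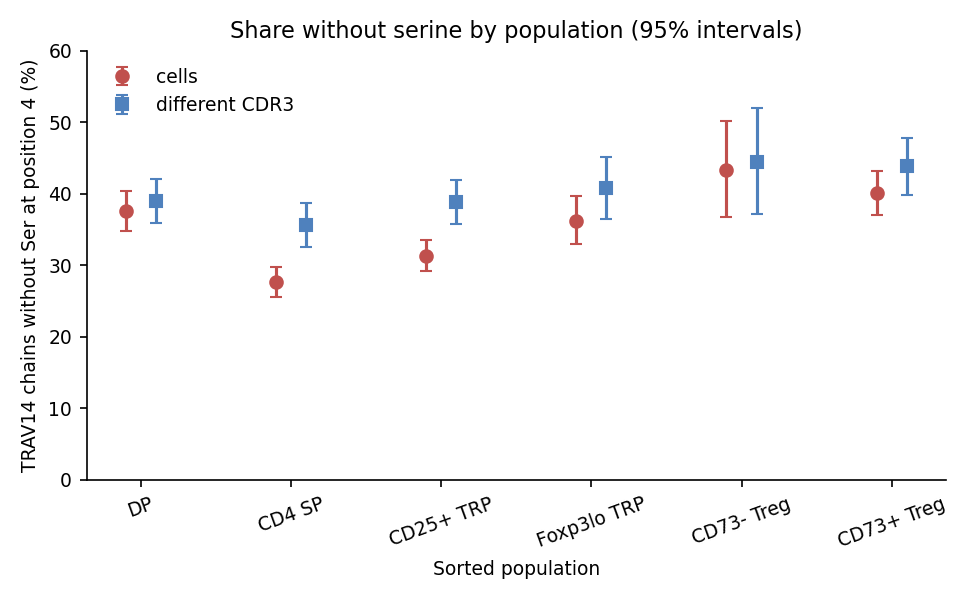
Share of TRAV14 chains without serine at CDR3 position 4 (y axis, percent) in each sorted population, by cells (circles) and with each different CDR3 counted once (squares). Bars are exact 95% intervals for counting error. By cells the points run from 27.6% in CD4 SP to 43.4% in CD73- Treg, and by different CDR3 from 35.6% to 44.5%.

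Among the authors' expression clusters, kept as numbers, the share over all cells was 25.7% in cluster 1 (23.1 to 28.4), 29.6% in cluster 2 (26.9 to 32.5), 27.2% in cluster 10 (22.5 to 32.4) and 26.2% in cluster 11 (20.9 to 31.9). It was 40.2% in cluster 5 (36.3 to 44.2) and 40.6% in cluster 9 (34.3 to 47.2). Population and cluster move together, so shares were also taken within a population, for clusters with at least 50 of its TRAV14 chains. Of 28 such pairs, 23 had an interval that held the population's own share.

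CD25+ TRP held 4 of the other 5 pairs. In its cells the share was 22.9% in cluster 1 (64 of 279, 18.1 to 28.3) and 13.7% in cluster 10 (10 of 73, 6.77 to 23.8). It was 38.0% in cluster 5 (172 of 453, 33.5 to 42.6) and 36.5% in cluster 7 (130 of 356, 31.5 to 41.8). Clusters 1 and 10 thus lay apart from clusters 5 and 7 within 1 sorted population, and did so without the most frequent CDR3. The fifth pair was cluster 5 of Foxp3lo TRP, at 53.5% (31 of 58, 39.9 to 66.7). In DP the share ran from 35.6% to 39.4% over clusters 4, 6 and 8.

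Arginine, a basic residue, stood in the place of serine in 925 of the 2298 chains, or 40.3% (38.2 to 42.3). Asparagine followed with 202 chains (8.79%), threonine with 191 (8.31%), lysine with 172 (7.48%), glycine with 165 (7.18%) and proline with 127 (5.53%). The remaining residues were isoleucine (79 chains), leucine (77), methionine (71), alanine (52), aspartate (51), glutamine (47), valine (33), glutamate (32), histidine (30), tyrosine (22), phenylalanine (10), tryptophan (8) and cysteine (4). By different CDR3, arginine made up 33.2% (435 of 1311, 30.6 to 35.8) and glycine moved up to the second place with 9.46%. All 19 residues other than serine were thus found.

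**Figure D2:**
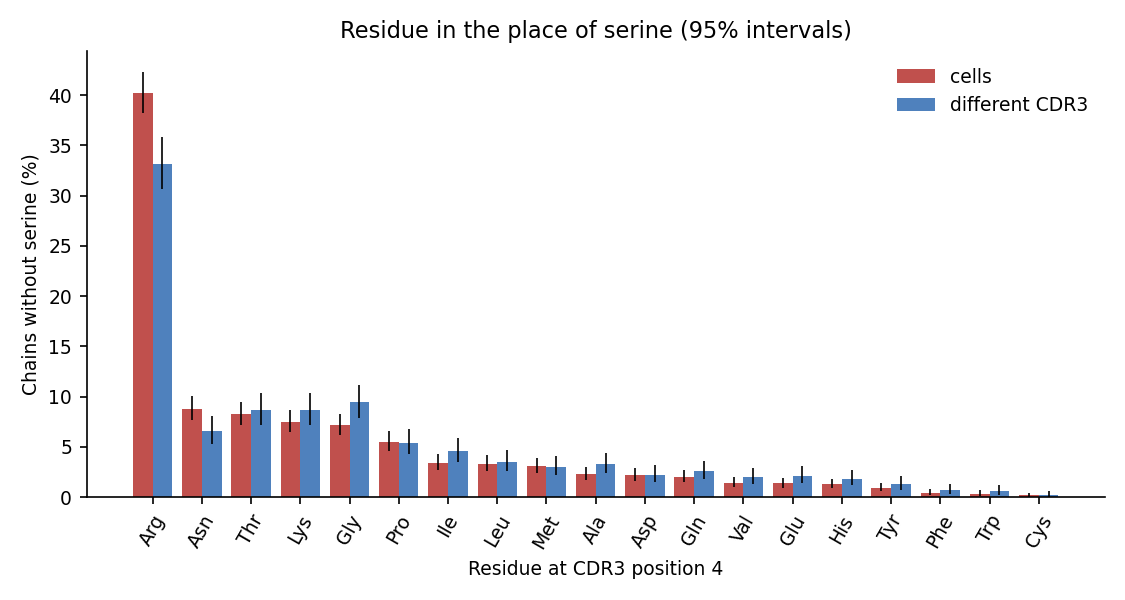
Residue at CDR3 position 4 of the chains without serine (x axis, three-letter names) as percent of these chains (y axis), by cells and by different CDR3, with exact 95% intervals. Arginine stands at 40.3% of cells and 33.2% of different CDR3, and no other residue passes 10%.

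Arginine, histidine and lysine together, the basic residues, made up 41.9% of chains without serine in DP (37.3 to 46.7) and 41.6% in CD4 SP (37.3 to 46.0). The share was 51.9% for CD25+ TRP (47.6 to 56.1) and 56.1% for Foxp3lo TRP (50.1 to 61.9). Among Tregs it was 61.1% without CD73 (50.5 to 70.9) and 54.2% with CD73 (49.3 to 59.1). All progenitor and Treg intervals lay above those of DP and CD4 SP by cells. A single sequence carried part of this: without TRAJ23-Arg the values were 41.8%, 39.4%, 48.4%, 51.9%, 58.9% and 47.8% in the same order. The interval of DP (37.1 to 46.6) then lay apart from that of CD73- Treg alone (48.0 to 69.2). That of CD4 SP (35.1 to 43.9) overlapped that of CD73+ Treg (42.6 to 53.1). It still lay below those of CD25+ TRP (43.96 to 52.8), Foxp3lo TRP (45.7 to 58.1) and CD73- Treg. By different CDR3 the values were 41.7%, 41.3%, 47.8%, 51.0%, 58.02% and 44.7%. All intervals then overlapped, those of CD4 SP (35.9 to 46.8) and CD73- Treg (46.5 to 68.9) by the least.

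Arginine at position 4 was also taken as a share of all TRAV14 chains, with or without serine. It came to 12.8% in DP (10.9 to 14.9), 9.70% in CD4 SP (8.39 to 11.1) and 13.4% for CD25+ TRP (11.8 to 15.03). Foxp3lo TRP stood at 16.8% (14.3 to 19.6), CD73- Treg at 21.5% (16.2 to 27.5) and CD73+ Treg at 17.4% (15.2 to 19.9). Without TRAJ23-Arg these came to 14.1% (11.7 to 16.8), 19.6% (14.5 to 25.6) and 13.1% (11.1 to 15.4) in the same order. Each then overlapped DP at 12.7% (10.9 to 14.8) and lay above CD4 SP at 8.81% (7.55 to 10.2). CD25+ TRP, at 11.45% (9.99 to 13.05), then overlapped CD4 SP. By different CDR3, CD4 SP (11.4%, 9.40 to 13.6) and CD73- Treg (20.3%, 14.7 to 26.9) lay apart, whereas CD73+ Treg (14.9%, 12.2 to 18.0) overlapped CD4 SP. Hydrophobic residues (isoleucine, leucine, methionine, phenylalanine, tryptophan, tyrosine, valine and cysteine) made up 6.23% of all TRAV14 chains in DP (4.91 to 7.78) and 4.61% in CD4 SP (3.70 to 5.67). CD25+ TRP had the lowest value, 3.28% (2.50 to 4.22), which lay apart from DP alone, and the other 3 populations lay between 4.11% and 4.52%. By different CDR3, CD25+ TRP stood at 4.995% (3.73 to 6.53) and DP at 6.80% (5.31 to 8.56), which overlap. Foxp3lo TRP was then the lowest, at 4.90%.

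The nucleotides show how far the V end had been cut back. The V bases kept were counted as the leading bases identical to the germline end, which cannot separate a kept base from an added base of the same letter. Of the chains without serine, 36.1% kept 11 bases (829, 34.1 to 38.1), 24.9% kept 10 (572), 13.8% kept 9 (317) and 25.2% kept 8 or fewer (580). None can keep 12, since the serine codon is then whole, so this upper limit is set by how the chains were chosen. Of chains with serine, 91.4% kept 12 or 13 (4137 of 4526, 90.6 to 92.2).

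The residue followed the number of V bases kept, as the genetic code fixes in part: with 11 bases the codon starts with adenine and guanine and can encode only serine or arginine. Of 925 arginine chains, 829 kept 11 bases, and AGG (630 chains) and AGA (234) were the main codons of the whole set. Chains with serine that kept 11 bases numbered 257. Of lysine chains 97.1% kept 10 bases, and of asparagine chains 74.8%. Glycine chains kept 9 bases in 61.2% and 8 or fewer in 38.8%. The alanine at position 3 was still present in 91.4% of the chains without serine (2100 of 2298).

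The median of added bases was equal in chains without and with serine, while the mean was somewhat higher without it. The bases matched by neither V nor J had a median of 3 in both (means 2.96 and 2.65), and 16.3% (14.8 to 17.9) and 16.4% (15.3 to 17.5) of the chains had none. By different nucleotide CDR3 the means were 3.59 and 3.47, and 6.3% (5.2 to 7.6) and 5.3% (4.5 to 6.3) had none. The trailing bases identical to the J segment had a median of 27 and 26, counted without leaving out bases that V matched as well. Within codon 4 itself, 79.3% of chains without serine had at least 1 base matched by neither segment, and 38.6% had at least 1 base matched only by J. J bases stood in this codon in 78.7% of asparagine chains and 76.5% of aspartate chains, but in 19.8% of arginine and 12.8% of lysine chains.

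**Figure D3:**
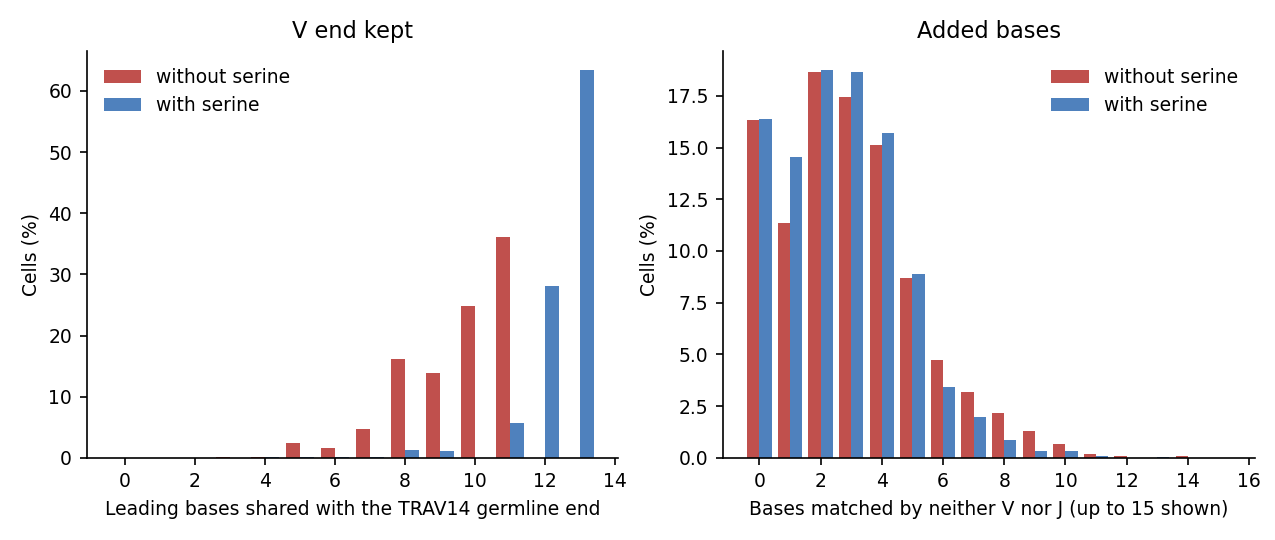
Left, leading bases shared with the TRAV14 germline end (x axis), and right, bases matched by neither V nor J (x axis, up to 15 shown), as percent of cells (y axes) for chains without and with serine. Chains without serine stop at 11 V bases, as their definition requires, with 36.1% there, while both kinds have a median of 3 added bases.

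The copies of TRAV14 gave different shares of chains without serine. By cells the share was 39.6% for TRAV14-1 (496 of 1254, 36.8 to 42.3), 33.7% for TRAV14-2 (252 of 748, 30.3 to 37.2) and 41.4% for TRAV14-3 (201 of 485, 37.0 to 46.0). It was 23.7% for TRAV14D-2 (47 of 198, 18.0 to 30.3) and 29.0% for TRAV14D-3-DV8 (517 of 1781, 26.9 to 31.2). In the remaining block it was 35.7% for TRAV14N-1 (355 of 995, 32.7 to 38.7), 23.3% for TRAV14N-2 (150 of 645, 20.1 to 26.7) and 39% for TRAV14N-3 (280 of 718, 35.4 to 42.7). Counting each different CDR3 once brought the copies to between 33.9% for TRAV14N-3 (29.4 to 38.5) and 46.7% for TRAV14-1 (43.0 to 50.3). TRAV14N-2 then stood at 36.4% (30.9 to 42.2) and TRAV14D-2 at 36.7% (28.1 to 46.0), both over 1.5 times their value by cells, and TRAV14N-3 turned from one of the higher copies into the lowest. These copies are near-identical and share the end printed above, so the assignment of single chains is uncertain.

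The V genes that were called lie on chromosome 14 of GRCm38, plus strand. Of these, TRAV14D-2 (52948568 to 52949169) and TRAV14D-3-DV8 (53078452 to 53079045) come first. TRAV14N-1 (53166626 to 53167178), TRAV14N-2 (53259578 to 53260179) and TRAV14N-3 (53370077 to 53370575) follow. TRAV14-1 (53554022 to 53554558), TRAV14-2 (53640701 to 53641225) and TRAV14-3 (53763173 to 53763694) lie nearest the J segments. Grouped by block, the share without serine was 38.2% for TRAV14 (36.2 to 40.1), 28.5% for TRAV14D (26.5 to 30.5) and 33.3% for TRAV14N (31.4 to 35.2). By different CDR3 these came to 43.6% (41.0 to 46.3), 38.4% (35.4 to 41.5) and 38.5% (35.8 to 41.3), and the intervals overlapped.

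In DP the blocks stood at 39.3%, 36.6% and 35.8% for TRAV14, TRAV14D and TRAV14N, and in CD4 SP at 28.2%, 26.7% and 27.9%, all overlapping within each population. In CD73+ Treg they were 53.9% (48.7 to 59.0), 27.6% (22.8 to 32.9) and 36.7% (31.6 to 42.1). The share of TRAV14-2 chains without serine was 19.4% in CD4 SP (39 of 201, 14.2 to 25.6) and 56.3% in CD73+ Treg (71 of 126, 47.2 to 65.2). TRAJ23-Arg held 42 of these CD73+ Treg chains and 1 of those in CD4 SP, and without it the shares were 34.5% (29 of 84, 24.5 to 45.7) and 19% (13.8 to 25.1), which overlap. Without TRAJ23-Arg the blocks of CD73+ Treg stood at 48.05% (42.6 to 53.6), 27.6% (22.8 to 32.9) and 35.03% (29.9 to 40.4). The TRAV14 block still lay apart from the others there. It also did so in Foxp3lo TRP without TRAJ23-Arg, at 42.5% (36.8 to 48.4), 28.3% (22.45 to 34.8) and 29.7% (24.2 to 35.7). By different CDR3 the blocks of CD73+ Treg came to 47.9%, 44.7% and 36.7%, with overlapping intervals. With all cells kept, TRAV14 and TRAV14D also lay apart in Foxp3lo TRP, at 43.5% (37.8 to 49.3) and 28.3%. The same held in CD25+ TRP, at 34.5% (30.7 to 38.35) and 25.9% (22.4 to 29.8). Without TRAJ23-Arg the intervals of CD25+ TRP overlapped, and by different CDR3 those of both progenitor populations did. The blocks of CD73- Treg overlapped by cells.

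J segments were compared as shares of chains without serine and of chains with serine, over 43 segments. A segment was counted as differing where the intervals lay apart both by cells and by different CDR3, and TRAJ30 was the 1 segment that did (2.33% of the segments, with 0% lower in chains without serine). By cells alone 14 of 43 segments lay apart (32.6%), 7 higher and 7 lower in chains without serine.

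TRAJ30 (chromosome 14, 54189866 to 54189924, plus strand) was joined in 6.40% of chains without serine (147, 5.43 to 7.48) and 1.39% of chains with serine (63, 1.07 to 1.78). By different CDR3 it was 4.50% (3.44 to 5.77) and 2.36% (1.70 to 3.17). Seen from the J segment, 70.0% of the 210 TRAJ30 chains lacked serine (63.3 to 76.1), against 33.7% of all TRAV14 chains. In DP 16 of 35 TRAJ30 chains lacked it (45.7%, 28.8 to 63.4), in CD4 SP 34 of 45 (75.6%, 60.5 to 87.1) and in CD73+ Treg 26 of 37 (70.3%, 53.0 to 84.1). All 8 TRAJ30 chains of CD73- Treg lacked it, with intervals of 63.1 to 100 that overlap those of the other populations.

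Among the most used partners, TRAJ23 (54196081 to 54196140) was joined in 9.83% of chains without serine (226, 8.65 to 11.1) and 6.10% of chains with serine (5.42 to 6.84), but in 4.27% and 5.11% of their different CDR3. TRAJ23-Arg alone held 138 of the 226 cells, and without it TRAJ23 made up 4.07% of chains without serine. TRAJ22 stood higher by cells as well, at 6.18% and 4.13%. TRAJ13 (6.27% and 8.82%), TRAJ26 (4.87% and 6.87%) and TRAJ12 (3.74% and 5.61%) stood lower by cells, while TRAJ15 (4.13% and 4.09%) and TRAJ31 (3.74% and 3.80%) had overlapping shares. By different CDR3, TRAJ22 came to 4.8% and 4.9%, TRAJ13 to 3.13% and 2.86%, and TRAJ26 to 5.19% and 5.44%. TRAJ12 came to 4.27% and 3.76%, and the intervals of each of these pairs overlapped. Outside these 8, TRAJ7, which was picked after its values were seen, came to 1.57% and 5.86% by cells and 1.53% and 2.19% by different CDR3.

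Within single J segments the share also varied between populations. In TRAJ23 chains the share without serine was 32.6% in DP (19.1 to 48.5), 40% in CD4 SP (31.0 to 49.6) and 69.3% in CD73+ Treg (61 of 88, 58.6 to 78.7). The difference rests on TRAJ23-Arg: without it the shares were 31.0% (13 of 42, 17.6 to 47.1), 28.9% (28 of 97, 20.1 to 38.95) and 27.03% (10 of 37, 13.8 to 44.1), all overlapping. In TRAJ26 chains it was 52.5% in DP (21 of 40, 36.1 to 68.5), 8.91% in CD4 SP (9 of 101, 4.16 to 16.2) and 32.8% in CD73+ Treg (22 of 67, 21.9 to 45.4). In TRAJ12 chains CD4 SP was lowest as well, with 35.6% in DP, 10.5% in CD4 SP (5.56 to 17.7) and 42.9% in CD73+ Treg (26.3 to 60.7). Repeated CDR3 bear on these values by cells. Over all populations, 26.5% of TRAJ26 chains lacked serine by cells and 41.2% by different CDR3, and for TRAJ12 it was 25.3% and 45.5%. Whether the population differences of TRAJ26 and TRAJ12 hold by different CDR3 was not tested.

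**Figure D4:**
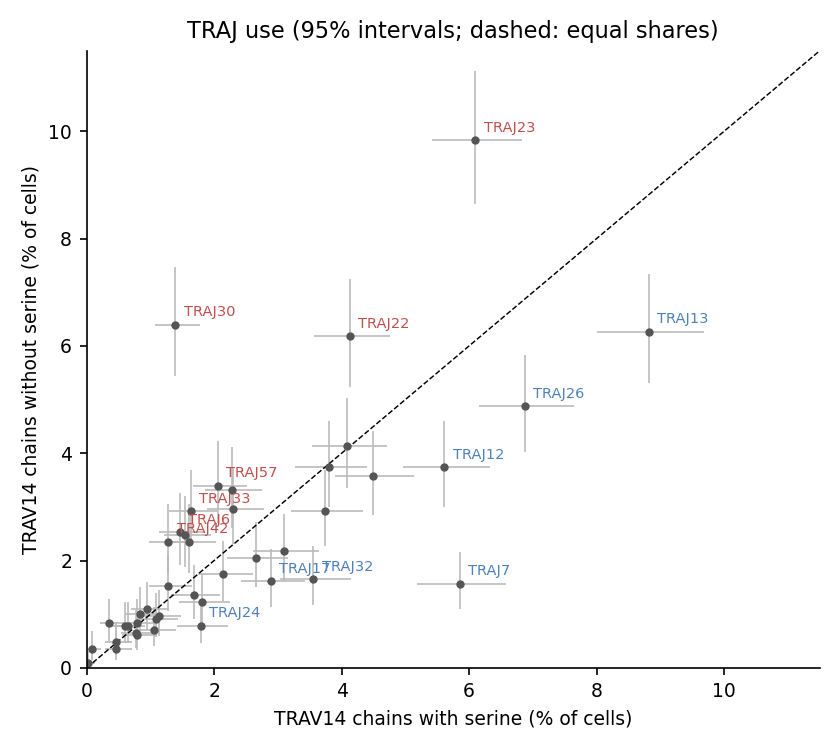
Each point is a TRAJ segment, placed by its share of chains with serine (x axis, percent of cells) and of chains without serine (y axis), with exact 95% intervals. Names mark the 14 segments whose intervals lie apart by cells, 7 above and 7 below the dashed line of equal shares. TRAJ30, at 1.39% and 6.40%, was the 1 segment that also lay apart by different CDR3.

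Segments also differed in the residue that replaced serine. Arginine was found in 70.4% of TRAJ23 chains without serine (159 of 226, 63.9 to 76.2), but in 23.9% of the 88 left without TRAJ23-Arg (15.4 to 34.1). It was found in 50.3% of those of TRAJ30 (74 of 147, 42.0 to 58.7). In TRAJ13 arginine and asparagine were equally frequent, with 56 of 144 chains each. Lysine led in TRAJ43 (41 of 67), proline in TRAJ5 (23 of 54), threonine in TRAJ6 (22 of 58), methionine in TRAJ57 (18 of 78) and aspartate in TRAJ7 (16 of 36), segments picked after their values were seen because they led for a residue. TRAJ7-Asp holds all 16 aspartate chains of TRAJ7.

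Grouped by position, 27.3% of chains with TRAJ2 to TRAJ20, the segments nearest the constant gene, lacked serine (25.6 to 29.1), against 38.0% with TRAJ21 to TRAJ39 (36.2 to 39.8) and 36.9% with TRAJ40 to TRAJ58 (34.3 to 39.6). By different CDR3 these came to 40.9%, 43.4% and 42.6%, with overlapping intervals. In DP the groups were 35.5%, 40.6% and 35.6% by cells, which also overlapped.

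CDR3 without serine were shorter, which the rule sets in part. It holds these chains to at most 11 V bases, and their mean was 9.6 bases, against 12.5 in chains with serine. The same limit applies within each J segment and each population. The mean length was 12.9 ± 1.28 residues (SD over 2298 cells, median 13) against 13.7 ± 1.09 with serine (4526 cells, median 14), a difference of -0.72 residues. Since J segments differ in length, the means were also compared within each of the 38 segments with at least 10 different CDR3 of each kind. CDR3 without serine were shorter in 38 of 38, by a median of 0.77 residues, with differences of -1.79 to -0.22. For TRAJ30 the means were 12.6 and 13.6 residues, and for TRAJ13 12.4 and 12.7.

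Short CDR3 mostly lacked serine, and the limit on V bases bears on this as well. Of the 427 chains of 11 or fewer residues, 70.7% did (302, 66.2 to 75), against 31.6% of chains of 12 to 15 (30.5 to 32.8) and 20.4% of chains of 16 or more (50 of 245, 15.5 to 26.0). The difference in mean length was present in each population, from -0.93 residues in DP to -0.61 in CD4 SP.

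**Figure D5:**
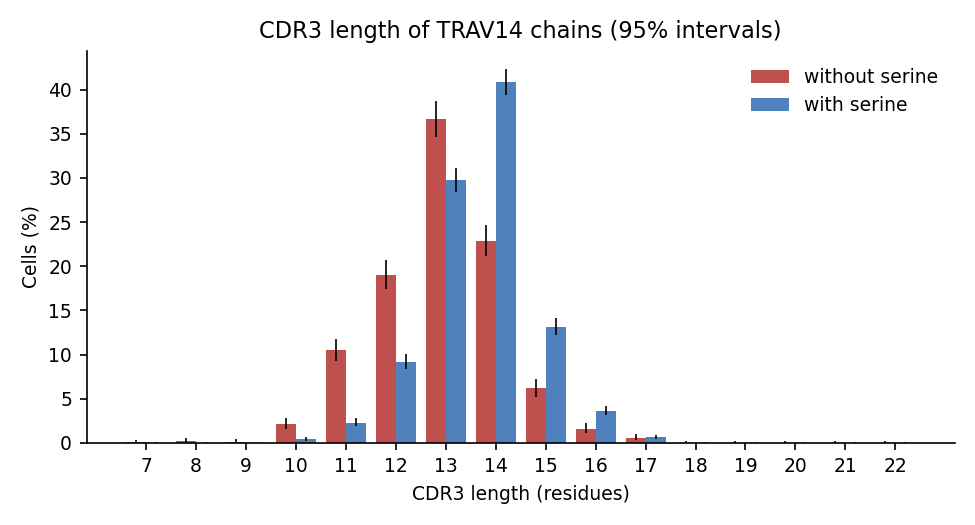
CDR3 length in residues (x axis) as percent of cells (y axis) for TRAV14 chains without and with serine at position 4, with exact 95% intervals. Chains without serine peak at 13 residues (36.6%) and chains with serine at 14 (40.8%).

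CDR3 without serine recurred less. Of their 1311 sequences 286 were found in 2 or more cells, and these held 55.4% of the cells (53.3 to 57.4), against 73.3% of cells with serine (72.0 to 74.6). At an equal 2298 cells, the expected number of different CDR3 was 1107 with serine, below the 1311 without. In DP the kinds were nearly level, at 384 different CDR3 without serine and an expected 381.9 with serine at 434 cells. They were further apart in CD4 SP (332 and 292.8 at 510 cells) and CD25+ TRP (389 and 343.9 at 553 cells), though these numbers of cells differ. At an equal 95 cells, 91.95 and 91.5 were expected in DP without and with serine, and 80.9 and 74.2 in CD4 SP. CD25+ TRP came to 82.4 and 80.5, Foxp3lo TRP to 79.05 and 75.03, CD73- Treg to 81 and 79.95, and CD73+ Treg to 75.9 and 70.7.

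Fewer CDR3 without serine were found in 2 or more populations, 226 of 1311 (17.2%, 15.2 to 19.4) against 473 of 1782 with serine (26.5%, 24.5 to 28.7). Their number of cells is smaller, which lowers this share. Of the repeated sequences, 79.0% (73.8 to 83.6) and 82.4% (79.0 to 85.4) were in 2 or more populations, which overlap. Between CD4 SP and Tregs, 45 CDR3 without serine were shared, 13.6% of the 332 of CD4 SP and 13.4% of the 336 of both Treg populations, against 92 with serine (15.3% and 21.9% of the lists). Between the progenitors and Tregs 82 were shared, 15.2% of the progenitors' 538 and 24.4% of the 336, against 148 with serine (19.0% and 35.2%). The lists with serine are longer, which bears on these shares. Repeated CDR3 were encoded by more than 1 nucleotide sequence in 70.3% of cases without serine (201 of 286, 64.6 to 75.5) and 70.9% with it (67.0 to 74.6).

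TRAJ23-Arg was the most frequent CDR3 without serine, with 138 cells. It was carried by 1 cell in DP (0.0865% of TRAV14 chains, 0.00219 to 0.481), 18 in CD4 SP (0.976%, 0.579 to 1.54) and 38 in CD25+ TRP (2.15%, 1.53 to 2.94). It reached 25 cells in Foxp3lo TRP (3.14%, 2.04 to 4.60), 5 in CD73- Treg (2.28%, 0.745 to 5.25) and 51 in CD73+ Treg (4.90%, 3.67 to 6.40). It was thus rare in DP, and its CD73+ Treg share lay apart from those of CD4 SP, DP and CD25+ TRP. It was encoded by 14 nucleotide sequences, the most of any repeated CDR3 of either kind.

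The sequence printed above held 94 of these cells. Those next in frequency, shown after their counts were known, reached the same arginine by another codon, with 24 and 4 cells.
TRAJ23-Arg second: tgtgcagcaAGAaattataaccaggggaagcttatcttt
TRAJ23-Arg next: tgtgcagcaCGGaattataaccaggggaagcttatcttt
The former kept 11 V bases with 1 added base and the latter 9 with 2 added. The chains were assigned to 4 V genes, TRAV14-2 most often (70 cells), and all were joined to TRAJ23.

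TRAJ23-Asn (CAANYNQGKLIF), the same sequence without the arginine, was distributed differently. It was found in 12 CD4 SP cells (0.650%, 0.337 to 1.13), 6 CD25+ TRP cells, 1 DP cell and 1 CD73+ Treg cell (0.0962%, 0.00243 to 0.535). None was found among 797 Foxp3lo TRP chains, which allows up to 0.376%. The intervals of CD4 SP and CD73+ Treg overlap.

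TRAJ13-Asn was found in 51 cells of all 6 populations, with 16 in CD25+ TRP, 13 in CD73+ Treg and 7 in Foxp3lo TRP. DP held 5, CD4 SP 6 and CD73- Treg 4. Its highest share was 1.83% in CD73- Treg (0.500 to 4.61) and its lowest 0.325% in CD4 SP (0.119 to 0.707). It is the most frequent CDR3 without serine in DP, and 45 of its cells used the sequence printed above. TRAJ13-Arg (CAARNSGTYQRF), which carries an arginine before the same TRAJ13 residues, had 19 cells, 7 in CD4 SP and 8 in CD25+ TRP. The serine chain TRAJ13-Ser was found in 113 CD4 SP cells (6.12%, 5.07 to 7.32) and 4 CD73+ Treg cells (0.385%, 0.105 to 0.982).

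The pair of TRAJ30 sequences was distributed differently by count. TRAJ30-Arg was found in 9 CD73+ Treg cells (0.865%, 0.397 to 1.64), 1 CD73- Treg cell, 4 CD25+ TRP cells and 3 Foxp3lo TRP cells. It was in none of 1845 CD4 SP chains, which allows up to 0.163%, nor of 1156 DP chains, which allows up to 0.260%. TRAJ30-Gly was found in 9 CD4 SP cells (0.488%, 0.223 to 0.924), 3 CD25+ TRP cells, 1 Foxp3lo TRP cell and 1 cell of each Treg population. All 17 cells of the former were assigned to TRAV14-1 and all 15 of the latter to TRAV14N-1.

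Of the remaining frequent sequences, TRAJ7-Asp (CAADYSNNRLTL) had 10 of its 16 cells in CD4 SP, 3 in DP and 3 in CD25+ TRP. It was in none of 1040 CD73+ Treg chains, which allows up to 0.288%. TRAJ43-Lys (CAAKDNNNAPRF) had 6 of its 15 cells in CD73+ Treg and 1 in CD4 SP. TRAJ22-Arg (23 cells) was found in all 6 populations, at 8 cells in CD4 SP and 7 in CD25+ TRP. TRAJ57-Met (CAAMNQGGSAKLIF, 16 cells) had 5 in Foxp3lo TRP, 6 in CD4 SP, 4 in CD25+ TRP and 1 in CD73+ Treg. Counts this small leave wide intervals, which overlap between most populations.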

How the data were processed

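Per the labels' protocols, 1 pool of hashtagged cells gave an mRNA, a hashtag and a TCRα-enriched library by 10x Genomics 5' chemistry, and Cell Ranger 3.1.0 and Seurat 3.1.1 are listed in the submitters' processing notes. How cells were filtered, hashtags called and doublets handled is not given in the sources used here. UMI counts for 12208 cells are deposited in 14790 gene rows without names, so sort markers were not checked and clusters stay numbers. The deposited contig table gives V and J gene, CDR3, UMI count and read count for 12771 barcodes, of which 7379 were in the expression table. Populations and clusters came from the deposited metadata, which carry no barcode. Their row order was checked by clonotype, and CDR3 against the deposited α table, which matched for 6982 of 6982 cells each. Cells with the plain hashtag label Treg were taken as CD73- Treg.

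Cells with 2 productive α chains (330) were left out. A CDR3 was counted once per cell, or once per amino acid sequence. Median cell UMIs ran from 1457 (DP) to 3248 (CD25+ TRP), and TRAV14 chains per population from 219 (CD73- Treg) to 1845 (CD4 SP), so CD73- Treg has the widest intervals. α contigs had median UMIs of 17 without and 18 with serine. A count of 0 allows the share of 3 cells. Germline V and J ends came from GENCODE M21 (GRCm38). V bases were matched first, then J bases, and the rest counted as added. On 5000 simulated chains V bases were exact in 78.4% and within 1 base in 96.0%, and added bases had a mean of 2.60 where 3.03 were made, since chance matches hide added bases. Expected numbers of CDR3 used the closed rarefaction formula.

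The named sequences were the 10 most frequent CDR3 and the most frequent of each population with at least 3 cells. Residues with at least 5 cells were named, along with cysteine, V copies with at least 50 chains, and the 8 most used TRAJ with those lying apart. The chains and these lists were chosen with earlier results of these data known. Alternatives changed the unit counted, the α chains and cells kept, the codon rule and the most frequent CDR3. Analyses used Python 3.11.15, pandas 2.3.3, numpy 2.4.6, scipy 1.17.1 and matplotlib 3.10.9.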

Additional observations from a re-analysis of the deposited data

Results flagged for a closer look

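Cells with 2 productive α chains took no part in the comparisons above, and chains without serine were found there too. Of 619 TRAV14 chains in 329 such cells, 219 lacked serine at position 4, or 35.4% (31.6 to 39.3), an interval that holds the 33.7% of cells with 1 chain. In 290 of these cells both chains used TRAV14, and in 40 of them both lacked serine. All mice were labelled TCRα+/-, and whether each of these barcodes held a single cell was not tested.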

How the results depend on the processing

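Over 15 results, 63 of 86 alternative values stayed within the interval of the main value (for the TRAJ count, within 1.5 times) and 23 did not. Counting each different CDR3 once gave 42.4% without serine over all cells, 43.8% in CD73+ Treg, 40.8% in Foxp3lo TRP, 38.9% in CD25+ TRP and 35.6% in CD4 SP, 33.2% arginine, 43.6%, 38.4% and 38.5% for the TRAV14, TRAV14D and TRAV14N blocks, and a length difference of -0.80 residues. Counting each V gene, J gene and nucleotide CDR3 once gave 38.4% over all cells, 32.9% in CD4 SP and 34.6% in CD25+ TRP. Both count a repeated sequence once by construction. With all cells kept and a clonotype taken as V gene, J gene and nucleotide CDR3, the cells in repeated clonotypes came to 31.0% without and 47.0% with serine. Counting every codon other than AGT as changed, which adds other serine codons, gave 39.2% over all cells, 43.8% in CD73+ Treg, 40.7% in Foxp3lo TRP, 37.6% in CD25+ TRP, 34.2% in CD4 SP and 43.3% in DP. Alternatives added after seeing the data, the values without TRAJ23-Arg among them, gave 36.4% arginine without the most frequent CDR3 of each kind, and 14 in place of 1 TRAJ segment lying apart when only cells were counted. Contigs with at least 3 UMIs, all productive α chains, and leaving out the 5% of cells with the most UMIs or small clusters moved no value past its interval. The first of these left out only 3 chains without and 7 with serine, so it could move little. It gave 15 of the 63 values that stayed. No paired analysis was possible because there is 1 pool of mice and 1 sample per population. The number of CD73- Treg chains limits what can be seen there.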
